A study of Mus musculus with 67 samples.

Results

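The 8 genes described here encode transcription factors of early cartilage, tendon and bone progenitors: the SOXE factors Sox9 and Sox8, the SOXD factors Sox5 and Sox6, the bHLH factor Scx, and Runx1, Runx2 and Runx3. They were chosen by name, 8 of the 46983 gene IDs listed for each library. The study asked how limb gene expression depends on the repressor GLI3 at a stage without HH signaling and at a stage with it, and 14 RNA libraries of mouse forelimb tissue served for this. For the pre-HH stage, E9.25 (21–23 S), each library pooled about 4 pairs of entire buds, with 3 WT and 4 Gli3-/- libraries. For the post-HH stage, E10.5 (32–35 S), each held the anterior portion of 2 pairs of buds, with 4 WT and 3 Gli3-/- libraries. WT embryos were Swiss Webster, and mutants were homozygous for Xt-J, a null allele of Gli3 present in every cell of the embryo. Per the paper's methods, the Xt-J allele was kept on a Swiss Webster background too. The stage of a library and the part of the bud that was dissected change together, so that their effects cannot be told apart.

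Limb cartilage arises where mesenchymal cells condense. SOX9 is required for this step and then works with SOX5 and SOX6 on cartilage matrix genes such as Col2a1, while SOX8, the close relative of SOX9, binds similar DNA. SCX marks tendon progenitors, and RUNX2 drives hypertrophic cartilage and osteoblasts, with RUNX1 best known from blood and RUNX3 from nerve, immune cells and maturing cartilage. In the anterior limb, where no HH ligand is made, GLI proteins are processed to repressors, and GLI3 supplies most of this repressor.

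Estimated depth was 38.1 to 56.8 M reads per library, and a TPM (a level per transcript length, with an equal sum for every library) of 1 equalled 20.7 to 29.3 reads per kilobase. All 8 limb mesenchyme markers checked, among them Prrx1 and Tbx5, had a TPM of at least 1 in every library, and their summed TPM was 666 to 1323. Gli3 RNA was 84.3, 73.4, 89.7 and 79.1 TPM in E10.5 WT and 40.9, 40.3 and 38.7 TPM in Gli3-/-. At E9.25 it was 44.2, 15.8 and 44.6 TPM in WT against 14.3 to 20.8 TPM in Gli3-/-, so that WT replicate 2 overlapped the mutant libraries. Xt-J deletes the 3' end of the gene, and the table value covers the whole gene, so reads of the remaining exons are included. WT replicate 2 at E9.25 also stood apart for long genes: over 1555 genes spanning at least 100 kb, its median deviation was -0.59 on the log2 scale, against -0.25 over all genes. Deviations were taken from the mean of all E9.25 libraries, WT replicate 2 included. Sox5, Sox6, Runx1 and Runx2 are long genes, and values without this library are given beside the E9.25 genotype differences and where a call or a sign changed.

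Sox6, Sox8 and Runx2 were the members that passed the test as lower in Gli3-/- limbs at E10.5, and the DNA upstream of each is shown so that their starts can be compared. RefSeq lists 6 promoters for Sox6, and only number 1, the farthest upstream, is shown. Each stretch ends just before the first base of the gene as the expression tables draw it and begins 250 bases before the start site of RefSeq (GRCm38.p6). Sequences are on the gene's strand, with capitals for the letters searched on both strands: CANNTG (the E-box core that bHLH factors such as SCX bind), ACAAAG (SOX) and TGTGGT (RUNX).
Sox6 (chr7:116038797-116038994, minus strand): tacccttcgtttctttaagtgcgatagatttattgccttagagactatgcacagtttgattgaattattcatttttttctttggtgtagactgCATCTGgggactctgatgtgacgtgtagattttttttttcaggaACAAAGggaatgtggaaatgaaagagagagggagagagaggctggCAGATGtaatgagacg
Sox8 (chr17:25570687-25570936, minus strand): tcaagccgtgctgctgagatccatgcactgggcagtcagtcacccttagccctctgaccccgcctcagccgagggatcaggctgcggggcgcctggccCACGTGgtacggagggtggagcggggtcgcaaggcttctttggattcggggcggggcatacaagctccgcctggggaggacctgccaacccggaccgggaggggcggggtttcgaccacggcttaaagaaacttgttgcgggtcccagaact
Runx2 (chr17:44814798-44814877, minus strand): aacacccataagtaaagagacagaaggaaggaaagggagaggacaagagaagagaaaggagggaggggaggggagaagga
The Sox6 stretch held 2 E-boxes and 1 SOX word, the latter 108 to 113 bases before the start site, and the Sox8 stretch held 1 E-box at 147 to 152 bases. Of the Sox6 promoters not shown, numbers 2 to 5 held SOX words and numbers 4 and 5 a RUNX word. The whole 250-base window of Runx2 held a RUNX word at 75 to 80 bases that shares letters with an E-box at 73 to 78 bases, both inside the gene as the tables draw it. Over all 32851 RefSeq promoters, 66.2% held an E-box, 16.5% a SOX word and 14.0% a RUNX word in the same window. The GLI word GACCACCCA, found in 0.225% of promoters, was in none of the windows of the 6 members with an entry. The Sox8 window was 65.6% G and C, against a median of 52.4% over all promoters and 44.8% for Runx2.

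**Figure D1:**
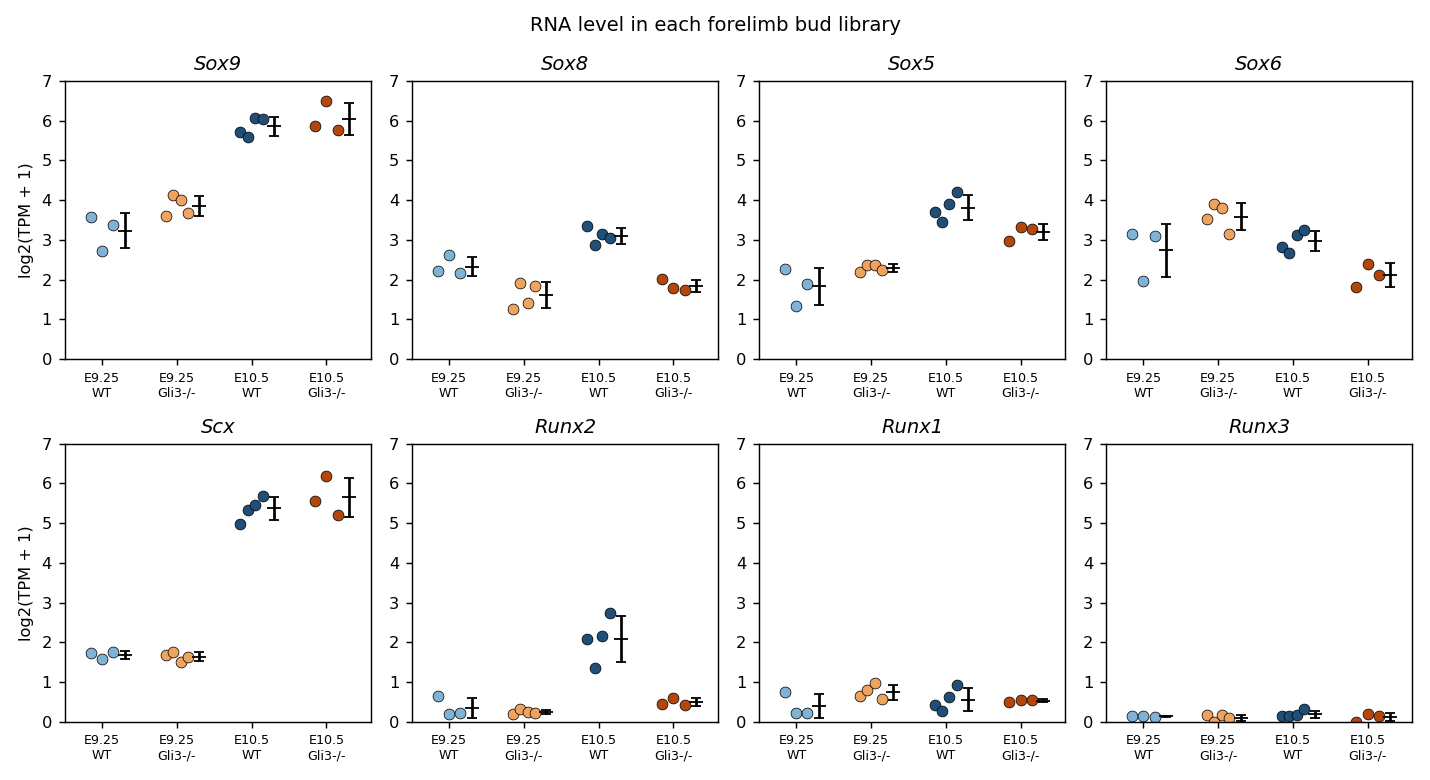
RNA level of the 8 members in each of the 14 libraries, as log2(TPM + 1) on the y axis, by group on the x axis, with points for libraries and the mean ± SD beside them. Sox9 and Scx are high in both E10.5 groups, Sox8 and Sox6 are lower in E10.5 Gli3-/- than in E10.5 WT, and Runx2 is above 1 TPM only in the 4 E10.5 WT libraries.

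Sox9 (ENSMUSG00000000567.5, chr11:112782224-112787760, plus strand, mm10 as for all positions of the tables) was the highest of the 8 members in the median of every group. Its TPM was 11.0, 5.63 and 9.41 in E9.25 WT and 11.2, 16.5, 15.1 and 11.8 in E9.25 Gli3-/-. At E10.5 it was 51.6, 47.0, 66.0 and 65.5 in WT and 57.7, 89.3 and 53.4 in Gli3-/-. Every E10.5 library lay above every E9.25 library, and at E10.5 the genotypes overlapped. In WT, Sox9 rose from a mean of 8.67 ± 2.75 TPM (SD, n = 3) to 57.5 ± 9.69 TPM (SD, n = 4), a difference of 2.63 on the log2(TPM + 1) scale (SE 0.22, limma adjusted p = 9.37e-05). In Gli3-/- limbs it rose by 2.19 (SE 0.20, limma adjusted p = 3.12e-05). Between genotypes at E10.5 the difference was 0.19 with a 95% confidence interval of -0.22 to 0.60 (limma adjusted p = 0.627), and without Gli3-/- replicate 2, the highest library, it was -0.04. At E9.25 all 4 Gli3-/- values lay above all 3 WT values, but the difference of 0.63 (SE 0.24) did not pass the test (limma adjusted p = 0.217), and it was 0.38 without WT replicate 2.

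Sox8 (ENSMUSG00000024176.10, chr17:25565892-25570686, minus strand), whose product has a DNA-binding domain much like that of SOX9, behaved differently. At E9.25 it was 3.64, 5.09 and 3.46 TPM in WT and 1.41, 2.78, 1.67 and 2.61 TPM in Gli3-/-. At E10.5 it was 9.23, 6.34, 7.80 and 7.28 TPM in WT and 3.04, 2.46 and 2.32 TPM in Gli3-/-. Every Gli3-/- library lay below every WT library of its stage. At E10.5 the mean TPM was 2.94 times higher in WT, and Sox8 fell by 1.26 on the log2 scale in Gli3-/- (SE 0.14, limma adjusted p = 0.00141), a call that held in all 18 alternative fits. At E9.25 the difference was -0.71 (SE 0.23; -0.94 from the median gene) and did not pass (limma adjusted p = 0.217) except where the spread was estimated from all 14 libraries (limma adjusted p = 0.0446), and it was -0.57 without WT replicate 2. The difference between these effects was -0.55 with a 95% confidence interval of -1.12 to 0.03 (limma adjusted p = 0.250).

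With stage, Sox8 rose in WT by 0.78 (SE 0.18, limma adjusted p = 0.00872). The median gene was itself 0.34 higher, and the rise of Sox8 over it was 0.44. The call for Sox8 was lost with quantile normalization (0.27, limma adjusted p = 0.353) and with median-of-ratios size factors (0.48, limma adjusted p = 0.0721). In Gli3-/- limbs the stage difference was 0.23 (limma adjusted p = 0.429). Sox8 made up 24.9 to 47.5% of the summed TPM of Sox8 and Sox9 in E9.25 WT and 9.98 to 18.1% in E9.25 Gli3-/-. Its share was 9.996 to 15.2% in E10.5 WT and 2.69 to 5.01% in E10.5 Gli3-/-. At both stages the highest mutant share was below the lowest WT share.

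Sox5 (ENSMUSG00000041540.16, chr6:143828425-144781977, minus strand) and Sox6 (ENSMUSG00000051910.13, chr7:115470872-116038796, minus strand) are partners in cartilage but moved apart here. Sox5 was 3.83, 1.52 and 2.70 TPM in E9.25 WT and 3.58, 4.16, 4.16 and 3.70 TPM in E9.25 Gli3-/-. Its E10.5 values were 11.99, 9.88, 13.9 and 17.5 TPM in WT and 6.86, 9.08 and 8.70 TPM in Gli3-/-. The E9.25 groups overlapped, with a difference of 0.46 (limma adjusted p = 0.256), or 0.21 without WT replicate 2, and at E10.5 each Gli3-/- library lay below the lowest WT library. Sox5 rose with stage in WT by 1.98 (SE 0.26, limma adjusted p = 7.04e-04) and in Gli3-/- by 0.90 (SE 0.15, limma adjusted p = 0.00155). The difference of these rises was -1.08 and did not pass (limma adjusted p = 0.0814), although it did without E9.25 WT replicate 1 (-1.30, limma adjusted p = 0.0181). The lower Sox5 level in E10.5 Gli3-/- also missed the threshold (-0.62, SE 0.18, limma adjusted p = 0.0878) and passed without WT replicate 2 (-0.74, limma adjusted p = 0.0403).

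Sox6 was 7.882, 2.90 and 7.55 TPM in E9.25 WT and 10.4, 13.8, 12.9 and 7.884 TPM in E9.25 Gli3-/-. The E10.5 level was 6.11, 5.41, 7.72 and 8.45 TPM in WT and 2.49, 4.28 and 3.37 TPM in Gli3-/-. At E9.25 the mutant libraries lay above WT, although Gli3-/- replicate 4 did so by only the fourth digit over WT replicate 1. At E10.5 they lay below WT, and the genotypes did not overlap. In Gli3-/- limbs Sox6 fell with stage by 1.48 (SE 0.21, limma adjusted p = 6.89e-04), from a mean of 11.3 ± 2.67 TPM (SD, n = 4) to 3.38 ± 0.897 TPM (SD, n = 3). In WT the stage groups overlapped, and the difference was 0.23 (limma adjusted p = 0.532), or -0.15 without E9.25 WT replicate 2. Between genotypes Sox6 fell by 0.86 in Gli3-/- at E10.5 (SE 0.18, limma adjusted p = 0.0299). At E9.25 its difference was 0.85 and did not pass (SE 0.31, limma adjusted p = 0.217), and without WT replicate 2 it was 0.46.

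The E10.5 call for Sox6 was close to the threshold. It was lost without WT replicate 1 (limma adjusted p = 0.0560), WT replicate 3 (0.0668), WT replicate 4 (0.0832), Gli3-/- replicate 1 (0.0953) or Gli3-/- replicate 3 (0.0990), and also with no filter on low values (0.110) or with the spread of all 14 libraries (0.154). The difference kept its sign in all 18 alternatives, between -0.70 and -1.02. Within the SOXD pair, Sox5 made up 26.3 to 34.3% of the summed TPM in E9.25 WT and 23.1 to 31.9% in E9.25 Gli3-/-. It made up 64.3 to 67.4% in E10.5 WT and 67.9 to 73.4% in E10.5 Gli3-/-. All 14 libraries showed the same exchange, from mostly Sox6 at E9.25 to mostly Sox5 at E10.5, and E9.25 WT replicate 2 did not stand apart in this share.

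**Figure D2:**
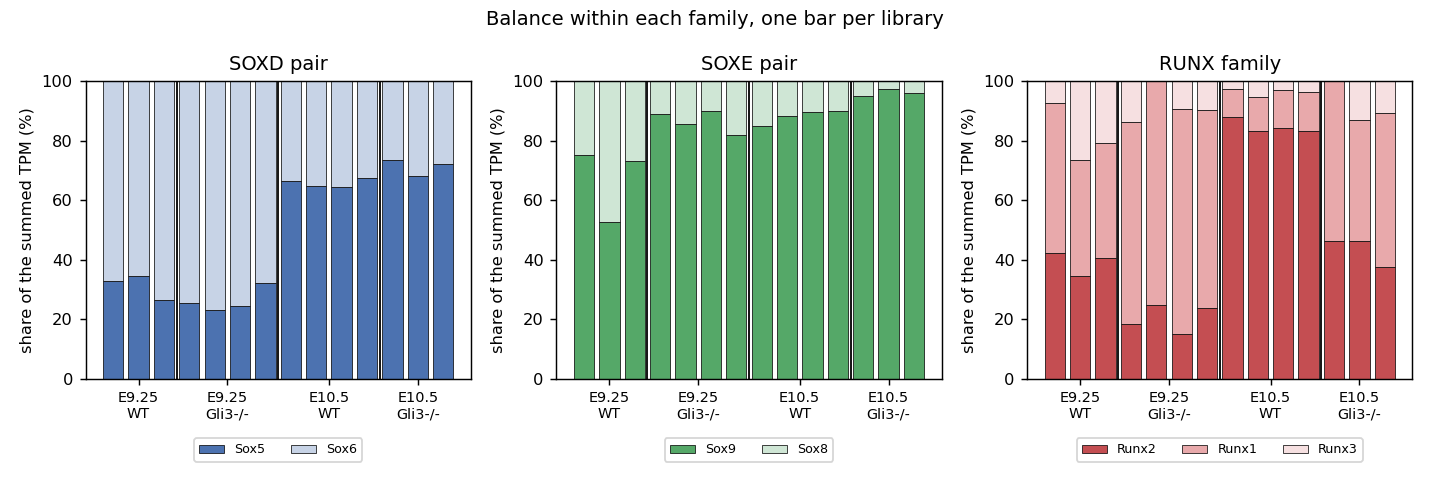
Share of each member in the summed TPM of its family (y axis, percent) with 1 bar per library, grouped by stage and genotype on the x axis. Sox5 is below 35% of the SOXD pair in every E9.25 library and above 64% in every E10.5 library, Sox8 holds 2.69 to 5.01% of the SOXE pair in E10.5 Gli3-/-, and Runx2 exceeds 83% of the RUNX family only in E10.5 WT.

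Scx (ENSMUSG00000034161.7, chr15:76457438-76459468, plus strand), the tendon progenitor factor, had the largest stage difference of the members tested in both genotypes. It was 2.31, 1.96 and 2.39 TPM in E9.25 WT and 2.20, 2.37, 1.81 and 2.07 TPM in E9.25 Gli3-/-. At E10.5 it was 30.6, 39.5, 43.3 and 50.5 TPM in WT and 46.1, 71.8 and 35.8 TPM in Gli3-/-. The stages were far apart, and the genotypes overlapped at each stage. The mean TPM rose 18.5-fold in WT (3.69 on the log2 scale, SE 0.17, limma adjusted p = 2.00e-05) and 24.3-fold in Gli3-/- (4.01, SE 0.21, limma adjusted p = 8.78e-07). The difference of the rises was 0.33 with a 95% confidence interval of -0.29 to 0.95 (limma adjusted p = 0.493). Between genotypes the difference was -0.05 at E9.25 (-0.46 to 0.36, limma adjusted p = 0.873) and 0.28 at E10.5 (-0.23 to 0.79, limma adjusted p = 0.553). These intervals do not show that the genotypes were alike.

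The Scx gene lies within Bop1, a ribosome biogenesis gene on the other strand, which was at 57.0 to 127 TPM, and the strand setting of the counting is not given in the sources used here. Bop1 fell with stage while Scx rose, by 0.47 in WT (limma adjusted p = 0.00597) and by 0.49 in Gli3-/- (limma adjusted p = 0.0430), and the Bop1 call in WT was lost in 2 of 18 alternatives. In E10.5 Gli3-/-, replicate 2 was the highest library for both Scx and Sox9. Sox9 and Scx together stood above the other 6 members at E10.5: in WT, Sox9 made up 42.0 to 46.2% and Scx 27.1 to 36.0% of the summed TPM of the 8 members. At E9.25 in WT, Scx made up 7.69 to 11.2% of that sum.

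Runx2 (ENSMUSG00000039153.16, chr17:44495987-44814797, minus strand) was 0.564, 0.138 and 0.174 TPM in E9.25 WT and 0.154, 0.241, 0.193 and 0.170 TPM in E9.25 Gli3-/-. At E10.5 Runx2 was 3.24, 1.53, 3.49 and 5.70 TPM in WT and 0.354, 0.523 and 0.338 TPM in Gli3-/-. The 4 E10.5 WT libraries were thus the only ones above 1 TPM, and the 10 others held 3.35 to 16.5 reads per kilobase of transcript. The E10.5 mean TPM was 8.61 times higher in WT than in Gli3-/-, a difference of -1.60 on the log2(TPM + 1) scale for Gli3-/- (SE 0.28, limma adjusted p = 0.0126). In WT Runx2 rose with stage by 1.73 (SE 0.31, limma adjusted p = 0.00285). Since Runx2 reached the filter on low values only through E10.5 WT, it could be tested only where it was bound to differ, and these calls and that of its interaction are given as values and not as support.

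Without E10.5 Gli3-/- replicate 3 the genotype call for Runx2 was lost (-1.56, limma adjusted p = 0.0530), as it was with no filter (limma adjusted p = 0.0669). In Gli3-/- limbs Runx2 was not tested with stage, and its 3 E10.5 values lay above its 4 E9.25 values, all below 1 TPM. Runx2 overlaps Supt3 on the other strand, at 12.4 to 19.3 TPM, for which the E10.5 genotype difference was -0.26 (limma adjusted p = 0.210). It also overlaps antisense RNAs (Runx2os1, Runx2os2 and Runx2os3) at no more than 0.230 TPM, which reads without strand could not tell from Runx2.

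Runx1 (ENSMUSG00000022952.16, chr16:92601466-92826149, minus strand) never passed the filter. It was 0.680, 0.157 and 0.165 TPM in E9.25 WT and 0.562, 0.730, 0.981 and 0.475 TPM in E9.25 Gli3-/-. Later, at E10.5, it was 0.337, 0.208, 0.528 and 0.911 TPM in WT and 0.413, 0.460 and 0.467 TPM in Gli3-/-. The genotypes overlapped at both stages. Runx1 is known from blood formation, and the summed TPM of 11 blood markers, 7 to 9 of them at 1 TPM or more in every library of a group, ranged from 4908 to 26957, which shows blood RNA in every library. Its part in the Runx1 level was not tested.

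Runx3 (ENSMUSG00000070691.10, chr4:135120652-135177990, plus strand) was at the limit of what these libraries show. It was 0.0973, 0.107 and 0.0890 TPM in E9.25 WT and 0.115, 0, 0.121 and 0.0706 TPM in E9.25 Gli3-/-, then 0.102, 0.1002, 0.121 and 0.243 TPM in E10.5 WT and 0, 0.148 and 0.0973 TPM in E10.5 Gli3-/-. The highest of these values equals 5.96 reads per kilobase, and no difference between groups was detectable at this depth. Of the summed RUNX TPM, Runx2 made up 83.2 to 88.1% in E10.5 WT and 37.5 to 46.3% in E10.5 Gli3-/-. Its share was 34.3 to 42.1% in E9.25 WT and 14.9 to 24.9% in E9.25 Gli3-/-, where Runx1 held 66.4 to 75.8%. Cbfb, the shared partner of the RUNX proteins, was at 74.0 to 138 TPM, above each RUNX gene in every library.

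In order of median TPM, E9.25 WT ran Sox9, Sox6, Sox8, Sox5 and Scx, and each neighbouring pair in this order overlapped in range. The RUNX genes followed, separated from Scx by a gap from 1.96 to 0.680 TPM. In E10.5 WT the order was Sox9, Scx, Sox5, Sox8, Sox6, Runx2, Runx1 and Runx3. There Sox9 and Scx overlapped, as did Sox8 with Sox6, Sox6 with Runx2, and Runx1 with Runx3. Sox5 stood alone between Scx and Sox8, and Runx2 did not overlap Runx1.

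Across the members, 0 of the 5 tested at E9.25 passed as different between genotypes, against 0.136% of all genes tested (0.108% higher and 0.0271% lower). With an unadjusted p under 0.05 there were 3 of these 5 (Sox6, Sox8 and Sox9), against 22.0% of all genes. The same 3 had groups that did not overlap, against 13.3% of all genes (9.97% higher and 3.36% lower). For Sox6 the gap was the small one between Gli3-/- replicate 4 and WT replicate 1. The median gene was 0.23 higher in E9.25 Gli3-/-, and relative to it Sox6 was 0.63 and Sox9 0.40 higher. Markers of flank lateral plate mesoderm, the tissue next to the bud, summed to 37.1 to 93.4 TPM in E9.25 WT, with 5 of 8 at 1 TPM in every library and Foxf2 at 0. In E9.25 Gli3-/- they summed to 111 to 260 TPM, with 7 of 8, and 2 of 7 tested passed as higher. Endothelial markers, all 7 at 1 TPM in every library, summed to 53.0 to 92.0 TPM in WT and 106 to 173 TPM in Gli3-/-, but 0 of the 7 passed. Neural tube markers, 1 of 7 at 1 TPM, summed to 6.12 to 12.52 TPM in WT and 2.81 to 4.82 TPM in Gli3-/-. The part of these tissues in the member differences was not tested.

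At E10.5, 2 of the 5 members tested apart from Runx2 were downregulated in Gli3-/- limbs (Sox8 and Sox6) and 0 upregulated, against 2.93% of all genes downregulated, 1.84% upregulated and 4.77% called in all. Runx2, which was bound to differ, also passed. Sox5 lay below WT in every library too, so that 3 of these 5 members did not overlap, against 19.3% of genes (7.87% higher and 11.5% lower). In bulk buds, fewer cells that express a gene and less RNA per cell cannot be told apart. Limb mesenchyme markers summed to 1062 to 1323 TPM in E10.5 WT and 793 to 834 TPM in Gli3-/-, with 6 of 8 lower and Fgf10 higher. Muscle progenitor markers summed to 43.6 to 52.4 TPM in WT and 28.0 to 41.0 TPM in Gli3-/-, but of 4 tested only Met passed (-0.57, limma adjusted p = 0.0251). Somite and sclerotome markers overlapped in sum, at 90.7 to 148 TPM and 89.7 to 129 TPM, but of 5 tested Pax1 fell by 4.23 on the log2 scale (limma adjusted p = 6.45e-04), Meox2 rose by 0.86 (limma adjusted p = 0.0164) and 3 did not pass. Pax1, like Runx2, reached the filter only through WT. Markers of surface ectoderm and ridge, all 8 at 1 TPM in every library, summed to 219.6 to 291 TPM in WT and 332 to 379 TPM in Gli3-/-. Only 1 of these 8 passed, Fgf8 (1.36 higher in Gli3-/-, limma adjusted p = 5.01e-04). The median of this list was -0.18, against -0.02 over all genes. Whether these cell types take part in the member differences was not tested.

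With stage, 4 of the 5 members tested apart from Runx2 were upregulated in WT, against 38.1% of all genes upregulated and 48.7% called in all. For the same 4 the groups did not overlap, all of them higher, against 41.5% of genes higher and 53.5% in all. In Gli3-/-, 3 of 5 were upregulated (Scx, Sox9 and Sox5), against 15.8% of genes, and 1 of 5, Sox6, was downregulated, against 9.17%, with 25.0% called in all. The groups of 4 of these 5 did not overlap, against 35.7% of genes (22.3% higher and 13.4% lower). The genotype comparisons and the stage comparisons use the same libraries. Somite and sclerotome markers rose in sum from 23.2 to 33.1 TPM over the E9.25 libraries to 89.7 to 148 TPM at E10.5, neural crest markers from 1.18 to 5.92 TPM to 10.8 to 19.4 TPM, and muscle markers from 5.88 to 11.5 TPM to 28.0 to 52.4 TPM. Not all somite and sclerotome markers rose. Of 5 tested in each genotype, 4 rose and 1 fell in WT, and 3 rose and 2 fell in Gli3-/-. The 4 include Pax1 and the 2 include Foxc2, each of which passed the filter between genotypes at 1 stage only. Sox9, Scx and the SOXD genes are also known from somites or neural crest. The defining neural crest marker Foxd3 was at 0 in every E10.5 library. Flank lateral plate mesoderm markers went the other way. Their sum fell from 37.1 to 93.4 TPM to 17.7 to 29.5 TPM in WT, with 4 of 5 tested lower. In Gli3-/- it fell from 111 to 260 TPM to 15.9 to 19.6 TPM, with 7 of 7 lower. Only 1 of the 8 reached 1 TPM in any E10.5 Gli3-/- library, so that these calls are values and not support. The part of these tissues in the stage differences of the members was not tested.

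In a model of all 14 libraries, the effect of Gli3 loss differed between stages for 1 of the 5 members tested apart from Runx2, namely Sox6, against 2.13% of all genes, with 1.65% lower and 0.477% higher at E10.5. Runx2, bound to differ, also passed. The difference was -1.71 for Sox6 (SE 0.39, limma adjusted p = 0.0340) and -1.49 for Runx2 (SE 0.35, limma adjusted p = 0.0400). The median gene was at -0.24, and the 2 members lay at -1.47 and -1.25 from it. Both calls were fragile. The Sox6 call was lost without E9.25 Gli3-/- replicate 2 (limma adjusted p = 0.0734) or 3 (0.0842), E10.5 WT replicate 1 (0.0599), 3 (0.0728) or 4 (0.0818), or E10.5 Gli3-/- replicate 1 (0.0921) or 3 (0.0931). For Runx2 the call remained only without E9.25 WT replicate 1, E9.25 Gli3-/- replicate 4 or E10.5 WT replicate 2, and without any other library the limma adjusted p was 0.0525 to 0.117. The sign was the same in all of these fits.

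**Figure D3:**
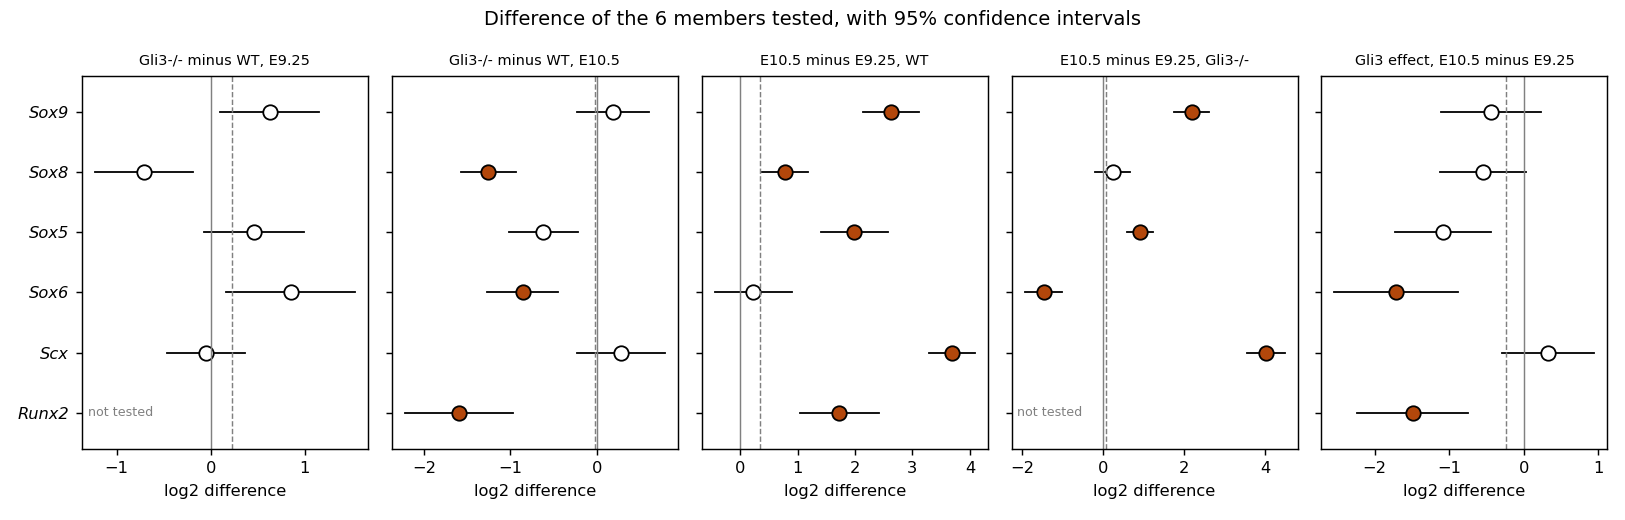
Log2 differences of the 6 members tested (x axis, with bars for 95% confidence intervals) in the 4 comparisons and in the interaction, with filled points for an adjusted p under 0.05 and a dashed line at the median of all genes. Sox8, Sox6 and Runx2 lie left of 0 at E10.5 in Gli3-/-, and Sox9 and Scx lie right of 2 with stage in both genotypes.

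Genes on which these factors act, or with which they work, were described from 7 lists. Their counts stand beside 38.1% of all genes higher and 10.6% lower with stage in WT, 15.8% and 9.17% in Gli3-/-, and 1.84% and 2.93% between genotypes at E10.5. Some of them reached 1 TPM in only 1 of the groups compared and, like Runx2, were bound to differ, so that their calls are values and not support. Among those named these were Gdf5 and Gdf6 between genotypes at E10.5. With stage they were Gdf5 in WT, Gdf6 in Gli3-/-, and Tnc and Col14a1 in both genotypes. Other genes in the stage counts passed the filter between genotypes at 1 stage only, so that their stage calls are given as values too. These were Col9a2, Fmod, Barx2, Six2, Col12a1 and Sox14 at E10.5, and Egr1 and Nog at E9.25. Of the cartilage matrix genes, 7 of 10 tested rose with stage in WT, among them Col9a1 (3.06, limma adjusted p = 2.92e-04) and Col2a1 (1.91, limma adjusted p = 0.00495), both targets of SOX9, and the proteoglycan Vcan (1.75). The 7 include Col9a2 and Fmod, which passed the filter at E10.5 only. Hapln1, which links proteoglycans, fell by 0.82 (limma adjusted p = 0.0165). The list median was 1.29, against 0.34 over all genes. In Gli3-/- limbs 3 of 9 rose (Col9a1 by 1.37, Vcan by 1.16 and Col11a1 by 1.14) and Hapln1 fell by 1.82, with a median of 0.41 against 0.06. Between genotypes at E10.5, 1 of 11 fell, Col9a3 (-0.94, limma adjusted p = 0.0478), a call lost in 11 of 17 alternatives, among them without WT replicate 2, 3 or 4 or without any Gli3-/- library (limma adjusted p = 0.0604 to 0.160). Col2a1 was at 78.9 to 118 TPM in E10.5 WT and 43.8 to 79.9 TPM in Gli3-/-. Acan, the main proteoglycan of mature cartilage, was at no more than 0.113 TPM in any library, and Col11a2 at no more than 1.36 TPM.

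Regulators of cartilage condensation had genotype calls as well. At E10.5, 6 of 12 tested were lower in Gli3-/- and 1 higher, with a list median of -0.43 against -0.02 over all genes. The 6 include Gdf5 and Gdf6, which were bound to differ. The parathyroid hormone receptor Pth1r fell by 2.12 (limma adjusted p = 6.43e-04) and the joint and condensation ligand Gdf6 fell by 2.04 (limma adjusted p = 2.87e-04). Pth1r was 28.2 to 42.7 TPM in E10.5 WT and 5.37 to 10.4 TPM in Gli3-/-, with no overlap. The ligand Bmp2 rose by 0.95 (limma adjusted p = 0.00998), a call lost in 2 of 17 alternatives, and the receptor Bmpr1b was lower by a log2 difference of -0.83 (limma adjusted p = 0.01996), a call lost without Gli3-/- replicate 2 or 3 (limma adjusted p = 0.0504 and 0.0865). Gdf5, a joint marker, was at 0 in all 7 E9.25 libraries, at 1.28 to 2.02 TPM in E10.5 WT and at 0.338 to 0.716 TPM in E10.5 Gli3-/-. Nkx3-2, which acts with SOX9 in the sclerotome, stayed at or below 0.810 TPM.

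With stage, 9 of 13 of these regulators rose in WT and 0 fell, while in Gli3-/- 3 of 12 rose and 4 fell. The 9 include Gdf5 and the 4 include Gdf6, both under 1 TPM in 1 of the groups compared and bound to differ. The 9 and the 3 also include Barx2, and the 4 include Nog, each of which passed the filter at 1 stage only. The difference between genotypes passed for 4 of 13, with Pth1r (-2.64, limma adjusted p = 8.46e-04) and Gdf6 (-2.54, limma adjusted p = 0.00130) first, and with Bmpr1b (-1.18) and Barx2 (-0.82), whose calls were lost in 13 of 24 and 19 of 23 alternatives. With 1 library left out, the Bmpr1b call was lost in 9 of 14 fits (limma adjusted p up to 0.117) and the Barx2 call in 13 of 14, all but that without E9.25 WT replicate 1 (up to 0.146).

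For tendon genes the stage calls pointed both ways. In WT 8 of 14 tested rose and 3 fell, and in Gli3-/- 7 of 14 rose and 4 fell. In both genotypes the rises include Six2 and Col12a1, and the falls Egr1, Tnc and Col14a1. Each of these passed the filter at 1 stage only. Tgfb3, a ligand needed for tendon progenitors, rose by 2.25 in WT and by 2.51 in Gli3-/-, from 0.647 to 1.17 TPM over the E9.25 libraries to 7.44 to 14.0 TPM at E10.5. The matrix genes Tnc and Col14a1 fell by 3.17 and 2.79 in WT and by 3.84 and 2.91 in Gli3-/-. Mkx, a later tendon factor, rose by 1.06 in WT (limma adjusted p = 0.00427) and by 1.34 in Gli3-/- (limma adjusted p = 6.68e-04), while the mature tendon marker Tnmd was listed at 0 in all 14 libraries. At E10.5, 1 of 11 tendon genes was higher in Gli3-/-, Lum (0.99, limma adjusted p = 0.00998), a call lost in 3 of 17 alternatives with a limma adjusted p of up to 0.809, and 2 were lower, Tgfb2 (-1.002, limma adjusted p = 0.0223) and Eya1 (-0.56, limma adjusted p = 0.0498). The Tgfb2 call was lost without WT replicate 3 or Gli3-/- replicate 1 or 3 (limma adjusted p = 0.0510 to 0.0915). The Eya1 call was lost in 14 of 18 alternatives, among them without WT replicate 2, 3 or 4 or any Gli3-/- library (limma adjusted p = 0.0727 to 0.185).

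SCX pairs with E proteins, and ID proteins block such pairs. In the list of 8 genes that also holds Bop1, Id1, Id2 and Id3 were lower in E10.5 Gli3-/- by log2 differences of -0.95, -1.28 and -0.81 (limma adjusted p = 4.24e-04, 3.35e-04 and 0.0166), and 0 genes were higher. The Id3 call was lost without WT replicate 4 or Gli3-/- replicate 1 or 3 (limma adjusted p = 0.0564 to 0.0725). Id2 was 194 to 246 TPM in E10.5 WT and 78.0 to 95.03 TPM in Gli3-/-. The effect on these 3 genes also differed between stages, by -1.55 for Id2, -1.39 for Id3 and -0.94 for Id1. The E protein gene Tcf4 rose with stage by 1.72 in WT and by 1.60 in Gli3-/-, and for the E protein genes Tcf3 and Tcf12 no genotype difference passed at either stage.

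Of 16 RUNX partners and co-regulators, 2 were higher in E10.5 Gli3-/- (Cbfa2t3 by 1.05, limma adjusted p = 0.00118, and Hes1 by 0.38, limma adjusted p = 0.0306) and 2 were lower. The latter were the Groucho corepressor Tle2 (-1.30, limma adjusted p = 0.00205) and Twist1, which inhibits RUNX2 (-0.65, limma adjusted p = 0.00161). The Hes1 call was lost in 11 of 18 alternatives, among them without any WT library or Gli3-/- replicate 1 or 2 (limma adjusted p = 0.0527 to 0.0855). Cbfb rose with stage by 0.49 in WT (limma adjusted p = 0.00885) and by 0.35 in Gli3-/- (limma adjusted p = 0.0469), and between genotypes at E10.5 its difference was 0.08 with a 95% confidence interval of -0.08 to 0.24. With stage in WT, 11 of 16 rose and 1 fell, with Runx1t1 (2.20) and Tle2 (1.87) the largest.

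Osteoblast and hypertrophy genes had few calls beside the Runx2 values. In WT 1 of 9 tested rose with stage, Col1a2 (3.19, limma adjusted p = 4.15e-04), and 1 fell, Atf4 (-0.40, limma adjusted p = 0.00367), and in Gli3-/- 2 rose and 2 fell. Between genotypes at E10.5, 2 of 9 were lower in Gli3-/- and 1 was higher, Atf4 (0.26, limma adjusted p = 0.0379). The Atf4 call was lost in 12 of 18 alternatives, among them with each library left out in turn (limma adjusted p = 0.0589 to 0.175). Dlx5, an upstream regulator of osteoblast genes, was lower (-0.69, limma adjusted p = 0.0122), a call lost without Gli3-/- replicate 3 (limma adjusted p = 0.0596). Col1a2 was also lower (-0.88, limma adjusted p = 0.0404), a call lost without WT replicate 1, 3 or 4 or Gli3-/- replicate 1 or 3 (limma adjusted p = 0.0773 to 0.157). Sp7, the osteoblast factor downstream of RUNX2, was at 0.514 to 1.64 TPM and its E10.5 genotypes overlapped. Of 8 other Sox genes tested, none passed between genotypes at E10.5 by limma (1 had an unadjusted p under 0.05), and there the SOXC factors of progenitors Sox4 (115.7 to 185 TPM) and Sox11 (215 to 287 TPM) were above every member. In WT 4 of 8 rose with stage, led by Sox11 (1.41, limma adjusted p = 0.00797), and Sox13, the third SOXD gene, fell by 0.51 (limma adjusted p = 0.0292). The 4 include Sox14, which passed the filter at E10.5 only. At E9.25, 0 of the 70 genes tested from the 7 lists passed between genotypes by limma, and 26 had an unadjusted p under 0.05, against 22.0% of all genes.

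**Figure D4:**
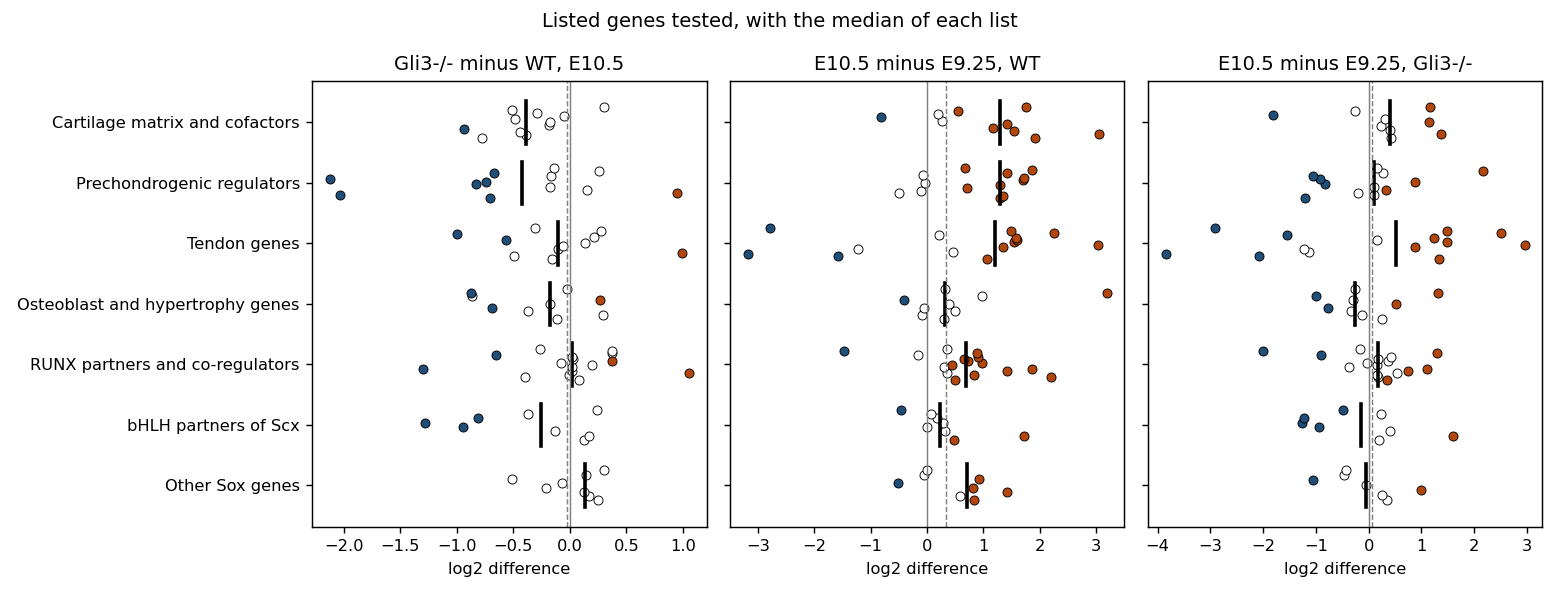
Log2 differences (x axis) of the genes tested in each of 7 lists (y axis) for Gli3-/- against WT at E10.5 and for E10.5 against E9.25 in each genotype, with orange and blue points for genes that passed as higher and lower, white points for those that did not, black bars for list medians and a dashed line for the median of all genes. Condensation regulators have 6 blue points at E10.5, among them Gdf5 and Gdf6, which were bound to differ. Cartilage matrix genes have 7 orange points with stage in WT, among them Col9a2 and Fmod, which passed the filter at E10.5 only.

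The genes whose log2(TPM + 1) was most like that of a member over the 14 libraries were found by Pearson's r among 16367 other genes. The 14 points fall into 4 groups, so that a high r mostly reflects shared group means. For Sox9 the first 3 were Tcf7l2 (0.996), Gatsl2 (0.994) and Cyth1 (0.993), and for Scx Fli1 (0.994) and Tgfb3 (0.993) were among them. Sox5 was most like Tmx4 (0.988), Tmem260 (0.984) and Syne1 (0.984). Among members, Sox9 and Scx had an r of 0.967 and the partners Sox5 and Sox6 one of -0.0811. For the members lower in E10.5 Gli3-/-, the values were less high for Sox8 (Calb2 0.919, Tmem100 0.917 and Cldn10 0.908) and Sox6 (Plce1 0.955, Col4a5 0.948 and St3gal1 0.942). Runx2 was most like Pax1 (0.976), AI646519 (0.9749) and Cntnap2 (0.974), and Pax1, like Runx2, was high only in E10.5 WT, at 8.27 to 34.6 TPM against no more than 0.182 TPM elsewhere.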

How the data were processed

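Per the paper's methods, RNA was extracted with TRIzol, and single reads of 100 bases were aligned with HISAT2. The tool that made the gene values and the annotation are not given in the sources used here. The submitters' processing notes list mm10, and 99.8% of 33122 genes with a RefSeq symbol overlap their GRCm38.p6 position. The authors deposited for each library the coverage of each gene (mean depth per base), its FPKM and its TPM, the last scaled by the authors to one total for all libraries. Coverage and FPKM served only to estimate reads per library, and TPM was used for every comparison. No counts are in these tables, so no count test was run.

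Lines with the same gene ID were added up. A linear model was fitted to log2(TPM + 1) with limma 3.58.1 (lmFit, then eBayes with trend, R 4.3.3). A gene entered a comparison where 3 or more of its libraries reached a TPM of 1. Fold changes on this scale are too small for low genes. P-values were two-sided and Benjamini-Hochberg adjusted over all genes tested, with a threshold of 0.05. The fits used the 2 groups compared, and the interaction all 14 libraries. Libraries are pools of buds, and p-values measure the spread between pools. No pair of libraries was identical. The fit was tested on simulated data. Python 3.11.15, pandas 2.3.3 and NumPy 2.4.6 did the rest.

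Named were all 8 members, at most 4 genes per list and comparison with the largest change among those that passed, a few preset genes whatever their values (such as Col2a1, Gdf5, Tnmd, Sp7 and Cbfb), Gli3, genes that overlap a member, and the 3 genes most like each member, apart from a gene that is not reported here. Marker genes outside these rules (Pax1, Meox2, Fgf8, Fgf10, Foxd3, Foxf2, Foxc2, Met) were named after their values were seen. So were the genes Sox13, Tcf3, Tcf12, Supt3, Fmod, Six2, Col12a1, Egr1 and Nog. The members and lists were chosen with earlier results of these data known. Alternatives were another pseudocount, filters, eBayes without trend, other normalizations, quality weights, replicate blocks, removal of the trend over gene span, a spread from all libraries, and each library left out. Their use for the named genes of the lists was added after seeing the data. No promoter entry was found for Sox9 and Scx. The data on chromatin of the study were not analysed here.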

Additional observations from a re-analysis of the deposited data

Results flagged for a closer look

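Runx3 in E10.5 WT replicate 4 stood far from the other 3 libraries of its group, at 0.31 on the log2(TPM + 1) scale or 0.243 TPM, with a gap of 0.844 of the group's range. It was the only such value among 16 groups of 4 libraries examined, where chance flags about 1 in 20, and it lies in the range of a few reads per kilobase.

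The interaction of stage and genotype passed for Sox6 (-1.71 on the log2 scale, limma adjusted p = 0.0340) and for Runx2 (-1.49, limma adjusted p = 0.0400). Both calls were fragile. With 1 library left out, the Sox6 call was lost in 7 of 14 fits and the Runx2 call in 11 of 14. For Sox6 the Gli3-/- libraries were above WT at E9.25, by a small gap and without passing the test (limma adjusted p = 0.217), and below WT at E10.5. For Runx2 only E10.5 WT reached 1 TPM, so that it was bound to differ and its call is a value and not support.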

How the results depend on the processing

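Over 28 results for single members and 533 alternative values, 480 kept their direction and side of the threshold, 40 lost the threshold, 6 gained it and 7 changed sign. The changes of sign were in differences that had not passed: Sox6 with stage in WT (-0.28 with quantile normalization, -0.058 with size factors, -0.045 with quality weights, -0.15 with the span trend removed and -0.15 without E9.25 WT replicate 2, in a range of -0.15 to 0.44 with 1 library left out), Scx at E9.25 (0.059 with the span trend removed) and Sox9 at E10.5 (-0.035 without Gli3-/- replicate 2, in a range of -0.035 to 0.33). Members passing at E9.25 numbered 1 instead of 0 with the spread of all 14 libraries. At E10.5 they numbered 1 instead of 3 with no filter, and 1 to 4 with 1 library left out, with 1 without Gli3-/- replicate 3. In the interaction they numbered 1 instead of 2 with a pseudocount of 0.1, a TPM filter of 5, quantile normalization or the span trend removed, 0 with no filter, and 0 to 3 with 1 library left out. With stage, 4 or 5 members passed in WT in all alternatives. Among 80 results for named genes of the lists, 57 kept their call in all alternatives and 0 changed sign. The cause of these changes was not tested.

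With a replicate block taken from the sample titles, 1 member passed at E10.5 (Sox8, with Sox6 at a limma adjusted p of 0.185) and 0 in the interaction. The E10.5 Gli3-/- libraries are numbered 1 to 3 in the titles and 2 to 4 in the tables, and a block by the latter gave 4 members at E10.5 and 0 in the interaction. Correlations of same-numbered libraries' deviations averaged -0.18 at E9.25 and -0.05 at E10.5 by titles. By the tables the E10.5 mean was 0.19, against -0.06 for libraries with different numbers. Of the 3 pairs 2 were over 0.1 and the lowest was at 0.05, which fell short of every pair. The numbers were therefore not taken to pair the libraries, but 3 pairs cannot settle whether the E10.5 libraries were paired. Depth limits Runx1, Runx3 and, outside E10.5 WT, Runx2, which rest on a few reads per kilobase.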
